A study of Mus musculus with 16 samples.

Results

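The genes described here encode the core of the mTOR kinase complexes and their upstream brake: Mtor, Rictor, Rptor, Tsc1 and Tsc2, together with Prr5l. They were taken as all regions of the deposited count table whose assigned symbol is 1 of these 6 genes, which gave 176 regions of 177720. Of these, 40 belonged to Prr5l, 12 to Mtor, 27 to Rictor, 84 to Rptor, 10 to Tsc1 and 3 to Tsc2. A filter on low counts kept 143 of the 176 regions for testing, among 135412 in all, and all 6 gene sums among 14952. Prr5l was chosen by its pull-down signal, whose gain in Tregs over naive cells was among the largest in these data, so that contrast is given as a description only.

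The measurement was 5-hydroxymethylcytosine (5hmC), the product of oxidation of methylated cytosine by TET enzymes, mapped by CMS-IP. In this assay bisulfite turns 5hmC into an adduct that an antiserum pulls down. All 16 libraries, 8 pull-downs and their 8 inputs, came from CD4 T cells of spleen and lymph nodes. The mice carried a Foxp3-eGFP reporter on the C57BL/6 strain and were 5 to 6 weeks old. The 4 groups had 2 replicates each. RA+VitC iTregs were naive CD4 cells turned into induced regulatory T cells with TGFβ, retinoic acid and vitamin C, and TGFβ iTregs were made with TGFβ and neither addition. Tregs were sorted as CD4+eGFP+ cells, and naive cells as CD4+eGFP- cells that were also CD25-, CD62L high and CD44 low. No source used here says whether the replicates came from separate mice or cultures, or whether iTregs were sorted for eGFP, so p-values measure the spread between libraries, which may be technical.

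mTOR acts in 2 complexes that share its kinase subunit. Rptor encodes Raptor, the substrate-recruiting subunit of mTORC1, which drives protein synthesis and growth. Rictor encodes the defining subunit of mTORC2, which phosphorylates AKT, SGK1 and protein kinase C, and Prr5l encodes Protor-2, a protein that binds Rictor within mTORC2. Tsc1 and Tsc2 form the complex that restrains Rheb, the activator of mTORC1. In mouse T cells, mTOR signalling favours effector over regulatory fates, while Tregs themselves need Raptor for their function.

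The windows of 250 bases upstream of annotated starts are shown because CpG sites are where 5hmC mostly lies, and the 6 genes differ widely in how many they carry there. They come from RefSeq on GRCm38.p6, matched by symbol for 6 of 6 genes, and each is written 5′ to 3′ on the gene's strand. CG is in capitals; it reads the same on both strands. The count table uses mm9, and no coordinates were converted, so these windows were not matched to its regions.
Prr5l, start 1 (chr2:101883028-101883277, minus strand): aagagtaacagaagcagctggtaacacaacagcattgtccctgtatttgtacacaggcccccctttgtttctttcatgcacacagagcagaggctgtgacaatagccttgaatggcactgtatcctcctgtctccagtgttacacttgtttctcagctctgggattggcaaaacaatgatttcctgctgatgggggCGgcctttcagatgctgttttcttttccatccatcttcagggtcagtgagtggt
Prr5l, start 2 (chr2:101838981-101839230, minus strand): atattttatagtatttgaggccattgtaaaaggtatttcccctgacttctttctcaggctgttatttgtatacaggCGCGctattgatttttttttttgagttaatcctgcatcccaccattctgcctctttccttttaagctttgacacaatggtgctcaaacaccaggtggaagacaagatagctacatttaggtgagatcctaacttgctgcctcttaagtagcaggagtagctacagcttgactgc
Prr5l, start 3 (chr2:101797708-101797957, minus strand): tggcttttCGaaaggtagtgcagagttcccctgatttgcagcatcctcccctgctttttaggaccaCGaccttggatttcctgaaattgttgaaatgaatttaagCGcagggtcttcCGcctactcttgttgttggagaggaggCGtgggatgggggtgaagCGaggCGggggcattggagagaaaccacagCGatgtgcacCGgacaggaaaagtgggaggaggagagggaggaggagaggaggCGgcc
Rptor (chr11:119602655-119602904, plus strand): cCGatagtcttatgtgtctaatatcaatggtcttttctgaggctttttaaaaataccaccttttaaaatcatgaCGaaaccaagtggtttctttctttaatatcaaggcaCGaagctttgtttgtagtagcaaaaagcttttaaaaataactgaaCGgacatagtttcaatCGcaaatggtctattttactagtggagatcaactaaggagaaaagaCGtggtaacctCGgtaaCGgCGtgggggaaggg
Rictor (chr15:6708131-6708380, plus strand): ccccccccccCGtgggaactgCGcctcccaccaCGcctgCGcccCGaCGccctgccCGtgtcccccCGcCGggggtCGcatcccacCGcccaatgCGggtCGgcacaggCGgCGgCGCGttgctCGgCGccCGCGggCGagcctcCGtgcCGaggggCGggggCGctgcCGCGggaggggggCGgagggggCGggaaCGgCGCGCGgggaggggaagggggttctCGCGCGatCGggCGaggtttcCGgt

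The Prr5l windows held 1, 2 and 10 CG dinucleotides from the most upstream start to the most downstream one, the Rptor window 9 and the Rictor window 40. The windows not printed held 19 in Mtor, 16 in Tsc1 and 24 in Tsc2. Over all 32851 such windows, the median was 6 (middle range 2 to 16), 92.1% held at least 1, and 1.31% held 40 or more. Rictor therefore stood near the CpG-rich end of all promoters, and Prr5l start 1 near the CpG-poor end.

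In the count table itself, most 5hmC regions of these genes lay on the transcripts, and a minority touched an annotated promoter. Regions on a promoter numbered 3 in Prr5l, 2 in Rptor, 5 in Rictor, 3 in Mtor, 1 in Tsc1 and 1 in Tsc2. Of the 40 Prr5l regions, 38 overlapped its 124.696 kb transcript (mm9 chr2:101554442-101679137, minus strand), of which 32 lay in introns alone, and together the 40 regions covered 59.527 kb. Of the 84 Rptor regions, 82 overlapped its 296.597 kb transcript (chr11:119464309-119760905, plus strand). Rictor had 21 of 27 regions on its transcript (chr15:6658381-6750400, plus strand), which they covered to 64.5%, against 11.5% for Mtor (chr4:147822691-147931794, plus strand), 8.74% for Tsc1 (chr2:28496763-28546687, plus strand) and 1.68% for Tsc2 (chr17:24732882-24769574, minus strand). No region lay over the most upstream start of Mtor, Rictor, Rptor, Tsc1 or Tsc2. Around the Rictor start, the nearest regions ended 859 bp upstream and began 1148 bp downstream. Prr5l had 1 region over the most upstream start of its mm9 transcript, and that region was among its weakest. This mm9 start was not matched to the numbered Prr5l windows above and need not be start 1. Distances from the Prr5l start given below are measured from the mm9 start.

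Reads in regions numbered 1648804 to 9731897 per pull-down, and the TGFβ iTreg pull-downs were the shallowest, with 1648804 and 2114056. Per input read, RA+VitC iTreg pull-downs had 3.88 and 3.14 reads, TGFβ iTreg pull-downs 1.49 and 1.72, Treg pull-downs 4.90 and 6.33, and naive pull-downs 5.50 and 6.39. Depth and this ratio therefore moved with the groups, and their part in the results was not tested except where thinning to equal depth is named. Levels are given as CPM, reads scaled to a fixed total of reads in regions with TMM factors, so they are relative within a library and say nothing of total 5hmC. More marked cells and more mark per cell cannot be told apart in such bulk DNA. As a check of the sorts, all 7 listed Treg marker genes had more 5hmC in Tregs than in naive cells. The list's summed level was 3864 to 4049 CPM in RA+VitC iTregs, 3213 to 3632 in TGFβ iTregs, 2624 to 2640 in Tregs and 1005 to 1037 in naive cells. Single markers differed from that sum: in TGFβ iTregs against Tregs, 4 were called higher and 2, Foxp3 and Ikzf2, lower. Foxp3 averaged 43.8 CPM in RA+VitC iTregs, 18.3 in TGFβ iTregs, 38.8 in Tregs and 16.2 in naive cells. Of 5 general T cell markers, 5 were lower in RA+VitC iTregs than in naive cells, and their sum was 533 to 538 CPM in RA+VitC iTregs, 382 to 502 in TGFβ iTregs, 596 to 625 in Tregs and 732 to 754 in naive cells. Of 7 naive T cell markers, 5 were lower in Tregs than in naive cells, with sums of 5160 to 5248 against 6809 to 6843 CPM. Marker genes of B cells summed to 114 to 147 CPM in all 8 pull-downs. Those of myeloid cells summed to 201 to 230 CPM in RA+VitC iTregs, 314 to 324 in TGFβ iTregs, 229 to 236 in Tregs and 279 to 286 in naive cells, and 3 of the 6 tested were lower in RA+VitC than in TGFβ iTregs, the direction of the Rptor difference given below; their part in it was not tested. The 5 CD8 and NK cell markers with regions summed to 195 to 209 CPM in RA+VitC iTregs, 216 to 217 in TGFβ iTregs, 333 to 340 in Tregs and 381 to 383 in naive cells. The sum of that list fell along the same order of groups as Rictor and Rptor below. By group means, Cd8a and Cd8b1 followed that order, while Klrb1c, Klrd1 and Prf1 did not. Klrb1c averaged 97.1 CPM in Tregs and 86.8 in naive cells. Klrd1 and Prf1 averaged 5.40 and 15.5 CPM in Tregs, below their 10.1 and 20.9 CPM in TGFβ iTregs. The part of these markers in the Rictor and Rptor results was not tested.

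**Figure D1:**
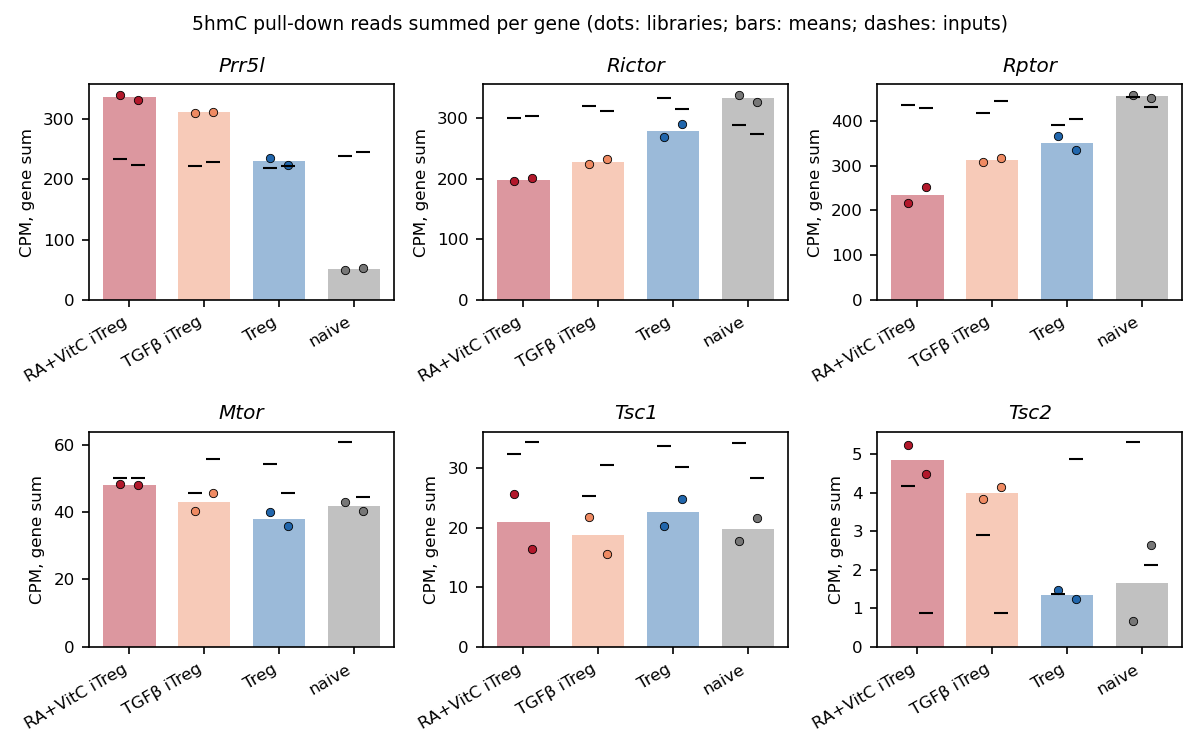
Pull-down reads summed over the regions of each gene, in CPM scaled by TMM (y axis from 0), for the 4 groups on the x axis. Dots are the 2 libraries of a group, bars their means, and dashes the matching inputs in CPM of input reads; Prr5l stands lowest in naive cells while Rictor and Rptor stand highest there.

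Prr5l carried more 5hmC in every regulatory group than in naive cells. Its summed level was 341 and 332 CPM in RA+VitC iTregs, 311 and 313 CPM in TGFβ iTregs, 237 and 225 CPM in Tregs, and 49.3 and 52.1 CPM in naive cells. The order of the group means ran RA+VitC iTregs, TGFβ iTregs, Tregs, naive cells, and the step between the iTreg types is tested below. The level was 4.54-fold higher in Tregs than in naive cells, the contrast that chose the gene, where it ranked 3 among 8443 genes with a mean of at least 100 reads. It was 6.62-fold higher in RA+VitC iTregs than in naive cells (log2 2.73 ± 0.07, SE) and 6.13-fold higher in TGFβ iTregs than in naive cells (log2 2.62 ± 0.08). Among the same 8443 genes these gains ranked 59 and 50. Both use the naive libraries that entered the choice of the gene, as do comparisons with Tregs the Treg libraries, so for Prr5l they carry no test here.

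The comparison of the 2 iTreg types used none of those libraries. Prr5l averaged 337 ± 6.39 CPM in RA+VitC iTregs and 312 ± 1.36 CPM in TGFβ iTregs (SD, n = 2 each), a log2 difference of 0.11 ± 0.07 (SE) that did not pass edgeR's quasi-likelihood test (adjusted p = 0.24). Over the alternative settings that difference lay between -0.02 and 0.13. Against Tregs, Prr5l was 1.46-fold higher in RA+VitC iTregs (log2 0.55 ± 0.05) and 1.35-fold higher in TGFβ iTregs (log2 0.44 ± 0.06).

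In CPM of reads in regions, Prr5l was below its input level in naive cells and above it in both iTreg types. Input DNA over the same regions gave 229, 226, 221 and 243 CPM on average in RA+VitC iTregs, TGFβ iTregs, Tregs and naive cells. The pull-down stood at 1.47, 1.38, 1.05 and 0.21 times its input in those groups. For Rictor these ratios were 0.66, 0.72, 0.86 and 1.18, and for Rptor 0.54, 0.73, 0.88 and 1.03. Both levels are relative to reads in regions, so a ratio of 1 stands for a typical region and not for background. Per kb of region, the Prr5l pull-down held 5.66, 5.24, 3.88 and 0.85 CPM in the same order, against 3.13, 3.60, 4.42 and 5.26 CPM per kb for Rictor and 2.02, 2.71, 3.03 and 3.93 for Rptor. In naive cells Prr5l was thus the least covered of these 3 genes per kb, and in both iTreg types the most. Of 30 tests of the 5 members testable in inputs, edgeR called 0 (lowest adjusted p = 0.55, for Rictor, at an unadjusted p of 0.0038, and 3 at an unadjusted p under 0.05). Over all 12825 genes tested in inputs it called 0 to 29 per comparison.

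**Figure D2:**
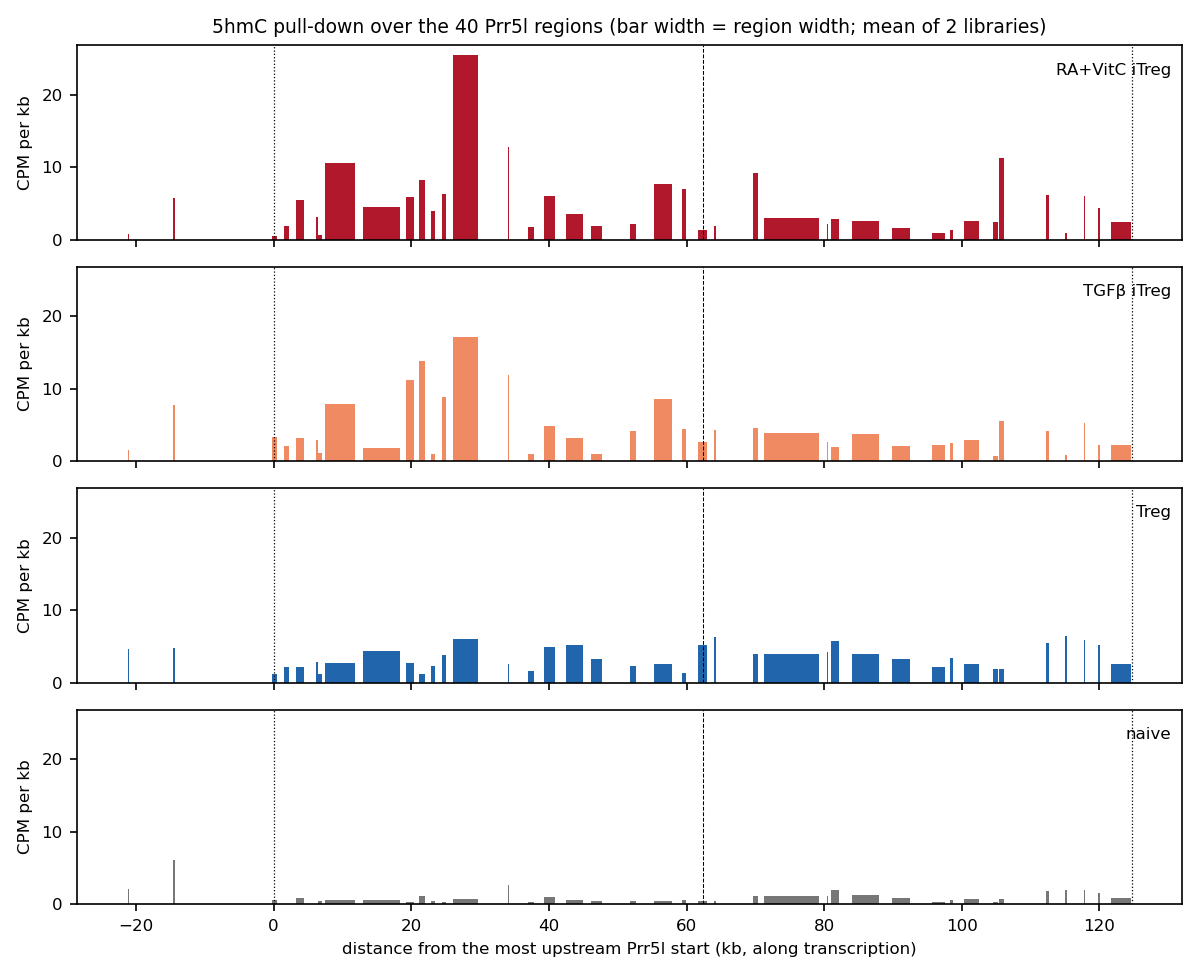
CPM per kb (y axis) of the 40 Prr5l regions along the gene, by distance in kb from its most upstream start (x axis), 1 panel per group and the mean of 2 libraries. Dotted lines mark the start and end of the transcript and the dashed line its middle; the tallest block, 27.9 kb from the start, reaches its height in RA+VitC iTregs and is nearly absent in naive cells.

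The Prr5l gain ran across the gene and was steepest towards its start. Of 31 tested regions, edgeR called 25 higher and 0 lower in RA+VitC iTregs than in naive cells, where 21.9% of all regions were called higher and 15.8% lower. In TGFβ iTregs against naive cells it called 23 higher and 0 lower (13.1% and 8.22% of all regions), and in Tregs against naive cells 27 higher and 0 lower (13% and 10.1%). Those 3 counts share the naive libraries behind the choice of the gene and are descriptions.

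The transcript was also split at its middle into segments of 62.3 kb, after the values had been seen. The segment nearer the start held 77.4% and 73.1% of the transcript's pull-down signal in RA+VitC iTregs, 72.5% and 67.6% in TGFβ iTregs, 55.9% and 52.8% in Tregs, and 37.0% and 41.6% in naive cells. Its level was 13.6-fold, 11.0-fold and 6.39-fold that of naive cells in RA+VitC iTregs, TGFβ iTregs and Tregs. The segment nearer the end stood at 2.91-fold, 3.08-fold and 3.49-fold in the same groups. Near the start, both iTreg types thus averaged more CPM than Tregs.

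A single intronic block held a large part of the iTreg signal. The region chr2:101649484-101653071 (mm9), centred 27.9 kb from the start, held 106 and 77.2 CPM in RA+VitC iTregs, 70.6 and 52.6 in TGFβ iTregs, 23.0 and 19.7 in Tregs, and 1.85 and 2.87 in naive cells. It made up 28.1%, 21.7%, 10.1% and 5.01% of all Prr5l signal in those groups. It was higher in RA+VitC iTregs than in naive cells by 5.23 on the log2 scale, and in TGFβ iTregs than in naive cells by 4.64. It was 4.30-fold higher in RA+VitC iTregs than in Tregs. Between the iTreg types it was higher in RA+VitC iTregs by 0.59 ± 0.12 on the log2 scale (edgeR adjusted p = 1.5e-04). That call was lost without RA+VitC iTreg replicate 1 (0.38, adjusted p = 0.17), without TGFβ iTreg replicate 2 (0.43, adjusted p = 0.097) and after thinning to equal depth (0.40, adjusted p = 0.062).

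Between the 2 iTreg types, 2 Prr5l regions were called higher and 1 lower in RA+VitC iTregs, where 4.56% and 1.98% of all regions were. The second higher region, chr2:101660741-101666163 in an intron, held 24.3 and 25.1 CPM in RA+VitC iTregs, against 10.3 and 9.65 CPM in TGFβ iTregs (log2 1.31 ± 0.25, edgeR adjusted p = 1.3e-05). It stood at 24.3 and 22.6 CPM in Tregs and at 2.47 and 3.76 CPM in naive cells, so RA+VitC iTregs were at the Treg level there and TGFβ iTregs between Tregs and naive cells. No alternative setting or left-out library ended that call. The lower region, chr2:101658781-101659924, lay next to it, further into the gene. It held 5.08 and 8.36 CPM in RA+VitC iTregs and 12.6 and 13.0 CPM in TGFβ iTregs (log2 -0.94 ± 0.31, edgeR adjusted p = 0.044), a call lost with DESeq2 (adjusted p = 0.18), with no count filter (0.065), under the replicate block (0.053), and without either TGFβ iTreg replicate or RA+VitC iTreg replicate 1 (0.21, 0.31 and 0.51). The opposite direction of these neighbouring regions thus rests on a call that leaving out 3 of the 4 iTreg libraries in turn ended.

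Against Tregs, RA+VitC iTregs had 10 Prr5l regions called higher and 7 lower (17.8% and 11.4% of all regions), and TGFβ iTregs 7 higher and 3 lower (9.58% and 5.82%); these use the Treg libraries behind the choice of the gene. The region chr2:101657131-101657987, centred 21.6 kb from the start, held 7.34 and 6.91 CPM in RA+VitC iTregs, 12.6 and 11.1 in TGFβ iTregs, 0.74 and 1.25 in Tregs, and 0.87 and 1.09 in naive cells. The Treg and naive libraries overlapped there (log2 0.02 ± 0.50), and both iTreg types stood above them. This region passed the filter on low counts only through the iTreg libraries, where it was high, so its levels are a description. At chr2:101667386-101671731 the mean was 46.4 CPM in RA+VitC iTregs, 34.1 in TGFβ iTregs, 11.7 in Tregs and 2.19 in naive cells. In the opposite direction, chr2:101616201-101617515, next to the middle of the transcript, held 2.54 and 0.86 CPM in RA+VitC iTregs, 3.44 and 3.38 in TGFβ iTregs, 7.02 and 6.72 in Tregs, and 0.49 and 0.79 in naive cells. In that region the iTreg levels rest on few reads, as 3 reads are worth 0.85 and 0.86 CPM in RA+VitC iTregs and 1.72 and 1.45 CPM in TGFβ iTregs. As a description, Prr5l thus held regions with higher iTreg levels and regions with higher Treg levels within 1 gene. The region over the most upstream mm9 start, chr2:101678628-101679346, held 0.85 and 0 CPM in RA+VitC iTregs, 3.44 and 1.45 in TGFβ iTregs, 1.48 and 0.34 in Tregs, and 0.62 and 0.20 in naive cells. These levels rest on 0 to 12 reads per library.

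**Figure D3:**
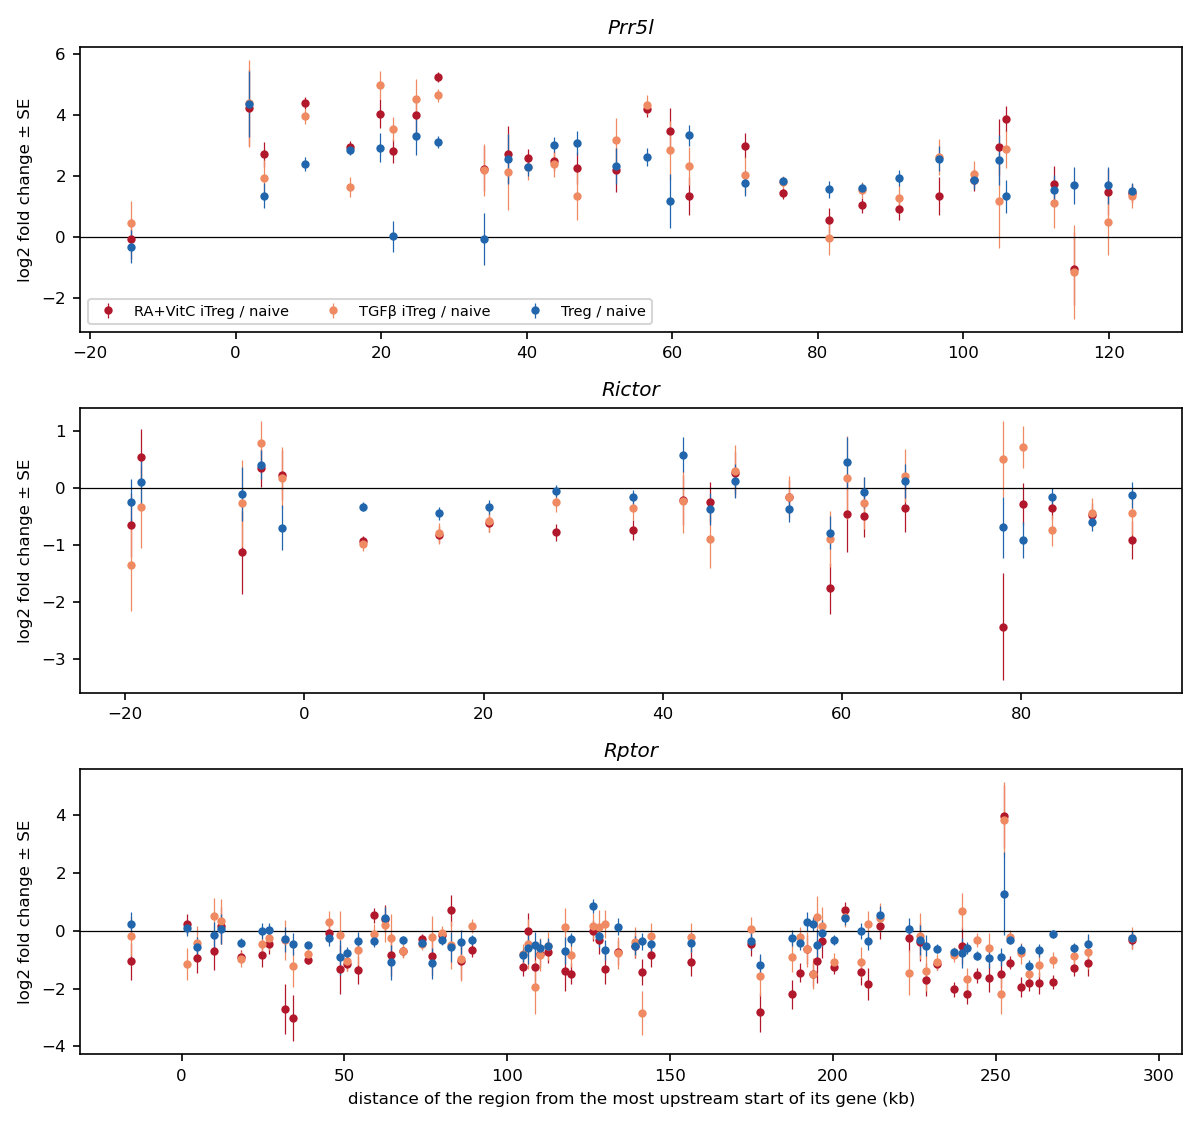
Log2 fold change over naive cells (y axis, ± SE from edgeR) of each tested region of Prr5l, Rictor and Rptor, by distance in kb from the gene's most upstream start (x axis), for RA+VitC iTregs, TGFβ iTregs and Tregs. Most Prr5l points lie above 0 with the highest iTreg points within 30 kb of the start, and most Rptor points lie below 0.

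Rictor and Rptor moved the other way. Rictor, the mTORC2 partner that Protor-2 binds, held 195 and 200 CPM in RA+VitC iTregs, 224 and 232 in TGFβ iTregs, 268 and 291 in Tregs, and 339 and 327 in naive cells. The order of the group means was the reverse of that of Prr5l. Rictor fell to 0.60 of the naive level in RA+VitC iTregs (log2 -0.75 ± 0.06, edgeR adjusted p = 1.5e-23) and to 0.69 of it in TGFβ iTregs (log2 -0.54 ± 0.07, edgeR adjusted p = 4.3e-12). In Tregs the log2 difference from naive cells was -0.25.

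Rptor, the mTORC1 subunit, held 215 and 251 CPM in RA+VitC iTregs, 309 and 318 in TGFβ iTregs, 366 and 336 in Tregs, and 459 and 451 in naive cells. The group means followed the order of Rictor. Rptor fell to 0.51 of the naive level in RA+VitC iTregs (log2 -0.96 ± 0.06, edgeR adjusted p = 3.4e-33) and to 0.69 of it in TGFβ iTregs (log2 -0.54 ± 0.06, edgeR adjusted p = 2.7e-13). In Tregs the log2 difference from naive cells was -0.38. These falls of Rictor and Rptor against naive cells held under all 18 alternatives.

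Over the 6 genes, edgeR called 2 higher and 2 lower in RA+VitC iTregs than in naive cells, where 29.2% and 26.6% of all genes were called higher and lower. The counts were 1 and 2 in TGFβ iTregs against naive cells (23.4% and 18.2% of all genes) and 1 and 2 in Tregs against naive cells (20% and 19.2%). Counts out of 6 this small are not read against these shares, and the choice of the genes used the last of these contrasts. Prr5l is counted as higher in each of these comparisons, although it carries no test in them. Tsc2, described below, is among the genes counted as higher, but it passed the filter on low counts through the iTreg libraries, where it is high.

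Between the iTreg types, edgeR called 0 of the 6 genes higher and 2 lower in RA+VitC iTregs, where 12.4% and 10.7% of all genes were. Rptor was lower by 0.43 ± 0.07 on the log2 scale (edgeR adjusted p = 5.3e-07), and all 18 alternatives kept that call, thinning to equal depth among them. Rictor was lower by 0.21 ± 0.08 (edgeR adjusted p = 0.037), a call lost with DESeq2 (adjusted p = 0.091) and without any 1 of the 4 iTreg libraries (adjusted p = 0.17 and 0.068 without RA+VitC iTreg replicates 1 and 2, and 0.063 and 0.21 without TGFβ iTreg replicates 1 and 2). The Rptor difference between the iTreg types was larger than the spread between libraries, while the Rictor call depended on each of the 4 libraries.

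Against Tregs, edgeR called 3 of the genes higher and 2 lower in RA+VitC iTregs (26.6% and 23.1% of all genes), and 2 higher and 2 lower in TGFβ iTregs (20.8% and 15.1%). The genes counted as higher include Prr5l and Tsc2 in both, and neither carries a test here. The Treg libraries entered the choice of Prr5l, and Tsc2 passed the filter on low counts through the iTreg libraries. Rictor was lower in RA+VitC iTregs than in Tregs (log2 -0.50 ± 0.06, edgeR adjusted p = 7.8e-13) and in TGFβ iTregs than in Tregs (log2 -0.29 ± 0.07, edgeR adjusted p = 0.00020). Without its region of most reads, described next, the difference between TGFβ iTregs and Tregs was no longer called (-0.12, adjusted p = 0.24). Rptor was lower in RA+VitC iTregs than in Tregs by 0.59 ± 0.06 (edgeR adjusted p = 5.6e-17). Its difference between TGFβ iTregs and Tregs was -0.16 ± 0.06 (edgeR adjusted p = 0.038), and 8 of 18 alternatives lost that call, among them DESeq2 (adjusted p = 0.13) and thinning (0.091).

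**Figure D4:**
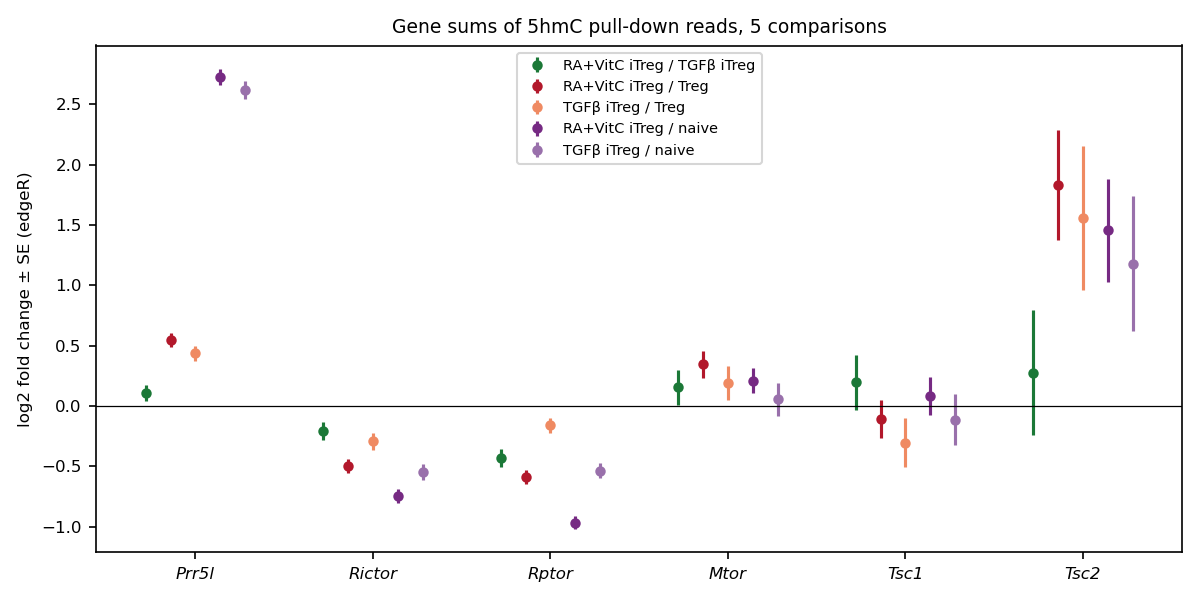
Log2 fold change of the gene sums (y axis, ± SE from edgeR) of the 6 genes (x axis) in 5 comparisons, each colour 1 comparison with the numerator named first. Prr5l lies at 2.73 and 2.62 for the iTreg types over naive cells and at 0.11 between them, Rictor and Rptor lie below 0 in all 5, and the Tsc2 bars are wide.

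In iTregs the Rictor fall was larger in the part of the transcript before its middle, which stood at 0.57 of the naive level in RA+VitC iTregs and 0.61 in TGFβ iTregs, against 0.73 and 0.83 past the middle. In Tregs the levels were 0.83 before the middle and 0.81 past it. The region of most reads, chr15:6659529-6670260, an intronic block of 10732 bp that begins 1148 bp inside the transcript, held 65.3 and 60.8 CPM in RA+VitC iTregs, 53.9 and 66.6 in TGFβ iTregs, 88.1 and 103 in Tregs, and 124 and 117 in naive cells. It was lower in RA+VitC iTregs than in naive cells by 0.93 ± 0.10 on the log2 scale (edgeR adjusted p = 2.0e-20) and in TGFβ iTregs than in naive cells by 0.99 ± 0.12 (edgeR adjusted p = 8.7e-16). The next block, chr15:6671078-6675820, held 15.8 and 19.3 CPM in RA+VitC iTregs and 17.8 and 17.9 in TGFβ iTregs, against 30.4 and 31.4 in naive cells. Both blocks thus stood lower in each iTreg type than in naive cells. Of 23 tested Rictor regions, 8 were called lower and 0 higher in RA+VitC iTregs than in naive cells (15.8% and 21.9% of all regions). The counts were 4 lower and 0 higher in TGFβ iTregs than in naive cells (8.22% and 13.1% of all regions), and 6 lower and 0 higher in Tregs than in naive cells (10.1% and 13%). Between the iTreg types edgeR called 0 of the 23, with 3 at an unadjusted p under 0.05 (1.98% of all regions were called lower and 4.56% higher).

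The Rptor fall was spread over a long gene. Of 72 tested regions, edgeR called 32 lower and 2 higher in RA+VitC iTregs than in naive cells, where 15.8% of all regions were lower and 21.9% higher. It called 15 lower and 1 higher in TGFβ iTregs than in naive cells (8.22% and 13.1% of all regions), and 16 lower and 1 higher in Tregs than in naive cells (10.1% and 13%). The intronic region of most reads, chr11:119499400-119506841, held 16.4 and 17.3 CPM in RA+VitC iTregs, 17.8 and 20.8 in TGFβ iTregs, 24.0 and 24.6 in Tregs, and 31.9 and 35.9 in naive cells. At chr11:119700073-119703047, 237 kb from the start, the values were 2.26 and 5.47 CPM in RA+VitC iTregs, 8.03 and 9.65 in TGFβ iTregs, 9.73 and 9.11 in Tregs, and 16.9 and 14.9 in naive cells. The fall in RA+VitC iTregs below naive cells there was 2.03 ± 0.25 on the log2 scale (edgeR adjusted p = 2.0e-14). At chr11:119729940-119734062, which touches an exon, RA+VitC iTregs held 4.24 and 4.03 CPM, against 13.8 and 14.6 CPM in naive cells (log2 -1.78 ± 0.25, edgeR adjusted p = 3.5e-11). In RA+VitC iTregs, the part of the transcript past its middle stood at 0.43 of the naive level and the part before it at 0.63.

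Between the iTreg types, 4 of the 72 Rptor regions were called lower in RA+VitC iTregs and 0 higher, where 1.98% of all regions were lower and 4.56% higher. The one of lowest p was chr11:119706838-119710157, with 4.80 and 4.61 CPM in RA+VitC iTregs and 9.18 and 12.6 CPM in TGFβ iTregs (log2 -1.22 ± 0.34, edgeR adjusted p = 0.0099). It lost its call without RA+VitC iTreg replicate 1 or 2 (adjusted p = 0.088 and 0.097) and without TGFβ iTreg replicate 2 (0.38). The region chr11:119700073-119703047 was also called (log2 -1.21 ± 0.38, edgeR adjusted p = 0.028) and lost the call with DESeq2 (adjusted p = 0.068), after thinning (0.061) and without RA+VitC iTreg replicate 1, TGFβ iTreg replicate 1 or TGFβ iTreg replicate 2 (0.54, 0.10 and 0.36). Few Rptor regions passed alone between the iTreg types. The median log2 difference there was -0.37 over the 72 regions and 0.01 over all regions. The 72 regions come from 1 gene and the same libraries, so this median is a description.

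Mtor, which encodes the kinase shared by both complexes, stood close together in the 4 groups. It held 48.2 and 48.1 CPM in RA+VitC iTregs, 40.4 and 45.7 in TGFβ iTregs, 40.2 and 35.8 in Tregs, and 43.1 and 40.4 in naive cells. It was called in 1 comparison only, as higher in RA+VitC iTregs than in Tregs by 0.35 ± 0.11 on the log2 scale (edgeR adjusted p = 0.0056), and that call was lost with library-size scaling (0.18, adjusted p = 0.15), DESeq2 (adjusted p = 0.058), thinning (0.34) and without Treg replicate 2 (0.090). 2 of its 12 regions also lie on Angptl7 or Exosc10. Without them Mtor was also called higher in RA+VitC iTregs than in naive cells (log2 0.38, adjusted p = 0.0082) and in TGFβ iTregs than in Tregs (log2 0.59, adjusted p = 0.0027). The intronic region chr4:147882573-147884604 separated the groups most clearly. It held 9.04 and 9.80 CPM in RA+VitC iTregs, 11.5 and 12.6 in TGFβ iTregs, 4.31 and 2.62 in Tregs, and 4.82 and 6.14 in naive cells, and it was higher in TGFβ iTregs than in Tregs by 1.81 ± 0.31 on the log2 scale (edgeR adjusted p = 1.7e-07).

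The TSC genes gave few reads. Tsc1 held 25.6 and 16.4 CPM in RA+VitC iTregs, 21.8 and 15.6 in TGFβ iTregs, 20.3 and 24.9 in Tregs, and 17.8 and 21.6 in naive cells. All 4 groups overlapped, and edgeR called Tsc1 in 0 of the 6 comparisons (0 also at an unadjusted p under 0.05), and no alternative called it. Tsc2 had 3 regions and 5 to 25 reads per library. Its level was 5.23 and 4.49 CPM in RA+VitC iTregs, 3.84 and 4.16 in TGFβ iTregs, 1.48 and 1.23 in Tregs, and 0.66 and 2.66 in naive cells. Tsc2 passed the filter on low counts through the iTreg libraries, where it was high, and would not have passed on the Treg and naive libraries alone, so its differences are a description with no test. They were 1.45 ± 0.43 on the log2 scale for RA+VitC iTregs over naive cells, 1.83 ± 0.46 for RA+VitC iTregs over Tregs and 1.56 ± 0.59 for TGFβ iTregs over Tregs. Most of this lay in 1 intronic region, chr17:24740915-24741176, with 11 and 8 reads in RA+VitC iTregs, 4 and 6 in TGFβ iTregs, 0 and 1 in Tregs, and 1 and 7 in naive cells. Without it the differences were 0.67, 0.67 and -0.16.

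The wider pathway was read from a list of 72 genes, and all 72 entered the test. Between the iTreg types 19 were higher and 5 lower in RA+VitC iTregs (12.4% and 10.7% of all genes), with a median log2 difference of 0.10 over the list and 0.00 over all genes. The genes named from the list all passed edgeR's test in the comparison given. Among pathway outputs, Prkca, a protein kinase C that mTORC2 phosphorylates, averaged 2168 ± 61.0 CPM in RA+VitC iTregs and 1172 ± 64.0 CPM in TGFβ iTregs (log2 0.89 ± 0.05, edgeR adjusted p = 2.3e-35). Lpin1, a phosphatidate phosphatase under mTORC1 control, was lower by 0.30 ± 0.08 (edgeR adjusted p = 0.0024). In the PI3K and AKT group, Pik3cd, the leukocyte PI3K catalytic subunit, was higher (log2 0.52 ± 0.06) and Phlpp1, an AKT phosphatase, lower (log2 -0.52 ± 0.07). Among genes of nutrient sensing at the lysosome, Lamtor3 of the Ragulator complex was higher (log2 0.92 ± 0.14) and the GTPase gene Rragb lower (log2 -1.64 ± 0.55), at 1.91 and 5.88 CPM on average in RA+VitC and TGFβ iTregs. Seh1l of the GATOR2 complex and the TSC subunit gene Tbc1d7 were higher (log2 0.43 ± 0.15 and 0.51 ± 0.14). Sesn1, a sestrin, was higher by 0.28 ± 0.07.

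The list held 7 further complex subunits. Of these, 0 were higher and 2 lower in RA+VitC than in TGFβ iTregs (12.4% and 10.7% of all genes). The 2 were Mapkap1, which encodes the mTORC2 subunit Sin1 (log2 -0.30 ± 0.11), and Tti1, which helps assemble mTOR complexes (log2 -0.60 ± 0.21). In RA+VitC iTregs against naive cells 4 of the 7 were lower and 1 higher (26.6% and 29.2% of all genes). The lower ones were Mapkap1, Tti1, Deptor, an mTOR inhibitor, and Akt1s1, the mTORC1 inhibitor PRAS40. In TGFβ iTregs against naive cells 2 were lower and 1 higher (18.2% and 23.4% of all genes), with a median log2 difference of 0.17. In Tregs against naive cells 2 were lower and 0 higher (19.2% and 20% of all genes). Counts out of 7 this small are not read against these shares. The gene higher in both iTreg types was Prr5, which encodes Protor-1, the closest relative of Protor-2. Prr5 averaged 35.4 CPM in RA+VitC iTregs, 38.9 in TGFβ iTregs, 25.6 in Tregs and 24.3 in naive cells (log2 0.54 ± 0.13 in RA+VitC iTregs and 0.66 ± 0.16 in TGFβ iTregs over naive cells, edgeR adjusted p = 0.00013 and 0.00018).

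Over all 72 genes, 28 were higher and 13 lower in RA+VitC iTregs than in naive cells (29.2% and 26.6% of all genes). The counts were 14 and 14 in TGFβ iTregs against naive cells (23.4% and 18.2% of all genes) and 13 and 14 in Tregs against naive cells (20% and 19.2%), both near the background. Against Tregs, 23 were higher and 12 lower in RA+VitC iTregs (26.6% and 23.1% of all genes), and 17 and 16 in TGFβ iTregs (20.8% and 15.1%). In Tregs against naive cells, Prkca was again the highest output (log2 0.84) and Sgk1, a kinase activated by mTORC2, the lowest (log2 -0.67). Stk11, which encodes the kinase LKB1, was higher (log2 0.46) and Pik3r5, a regulatory subunit of PI3K gamma, lower (log2 -0.39). Fnip2, a folliculin partner, was higher (log2 0.61) and Lamtor1 of Ragulator lower (log2 -0.43). Kptn of KICSTOR was higher (log2 1.03, at 3.39 CPM in Tregs and 1.65 CPM in naive cells) and Depdc5 of GATOR1 lower (log2 -0.21). Rheb, the GTPase that Tsc1 and Tsc2 restrain, stood at -0.19, Tti1 at -0.33 and Mapkap1 at -0.21.

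On chromosome 2, the genes beside Prr5l did not all follow it. Traf6, an adaptor ubiquitin ligase, held 162 and 141 CPM in RA+VitC iTregs, 116 and 127 in TGFβ iTregs, 92.1 and 102 in Tregs, and 46.8 and 55.9 in naive cells. Its order of groups was that of Prr5l, and it was higher in RA+VitC than in TGFβ iTregs by 0.31 ± 0.10 on the log2 scale (edgeR adjusted p = 0.0096). On the other side, Commd9 averaged 20.6 CPM in RA+VitC iTregs, 23.1 in TGFβ iTregs, 31.2 in Tregs and 37.9 in naive cells, and Ldlrad3, which encodes a membrane receptor of the LDL receptor family, 382, 388, 545 and 596 CPM. Both were lower in each regulatory group than in naive cells. Rag1, a recombinase gene with 1 region, averaged 2.95, 5.58, 8.10 and 6.71 CPM in the same groups, with TGFβ iTreg replicates of 9.61 and 1.56 CPM.

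The genes whose profile over the 8 pull-downs was most like that of Prr5l were Gxylt2, Rgs9, Hopx, Timd2 and Dusp4. Their Pearson correlations with Prr5l, on log2 CPM and among 8096 candidate genes, were 0.997, 0.997, 0.996, 0.995 and 0.995. Gxylt2 averaged 93.8 CPM in RA+VitC iTregs, 81.9 in TGFβ iTregs, 58.2 in Tregs and 15.2 in naive cells. Dusp4, a MAP kinase phosphatase gene, averaged 693, 707, 565 and 298 CPM. Within the 6 genes the correlations with Prr5l were -0.88 for Rictor, -0.85 for Rptor, 0.63 for Tsc2, 0.27 for Mtor and 0.05 for Tsc1. The 8 points are 4 groups of 2 libraries that differ in depth, so these values describe the order of groups and little else.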

How the data were processed

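The 6 genes and all gene lists were chosen with earlier results of these data known. The authors deposited whole-number counts of reads per region on mm9 for 16 libraries. Per the file headers, the table merges broad peaks that MACS2 called at q 0.01. The submitters' processing notes name MACS2 2.1.0.20151222, SAMtools 1.7, Trim Galore 0.4.2 and bcl2fastq 2.20.0.442. Not given in the sources used here: aligner and read counter. Libraries mapped by their titles to groups, and every value column was used.

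Counts were also summed per assigned symbol. Regions and sums of the 8 pull-downs were each fitted over the whole table with edgeR 4.0.16 in R 4.3.3 (TMM, filterByExpr with a minimum count of 10, quasi-likelihood F test, group term only, 4 residual degrees of freedom, Benjamini-Hochberg at 0.05). Region and gene CPM use their own TMM factors. SE is the log2 fold change over the root of F. Inputs were fitted alike with library-size scaling, and their CPM use plain reads. Alternatives were DESeq2 1.42.0, RLE and library-size scaling, no filter, mean reads of 50 or more, thinning to 1648804 reads, a replicate block, regions on a transcript or promoter only, and leaving out each library. 2 more were chosen after seeing the data: without regions on more than 1 gene, and without each gene's region of most reads. The fit was tested on simulated counts. 3 reads, the 95% bound for a count of 0, are worth 0.30 to 1.72 CPM; it covers counting error only. Replicates differed by 1.12 to 1.23 times counting error (chi-square over degrees of freedom), so none was a copy of the other's counts. Values this near 1 do not tell technical from biological replicates.

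All 6 genes are named in every comparison. All Prr5l regions counted, and for the others the region of most reads and up to 2 called regions of lowest p per comparison. Like genes are the 5 with the highest correlation among those with a mean of at least 100 reads, neighbours the 2 nearest symbols on each side, and pathway genes the largest and smallest called change per group; other genes and regions named were chosen after their values were seen.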

Additional observations from a re-analysis of the deposited data

How the results depend on the processing

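With 2 libraries per group and shallow TGFβ iTreg pull-downs, depth limits the weaker calls, above all those of single regions. The Rictor and Rptor differences of iTregs from naive cells kept their direction and call under all alternatives. Mtor, Tsc2 and the smaller Rictor and Rptor differences did not, as given beside them. The naive and Treg libraries entered the choice of Prr5l, so its ranges against them, given next, are a description. Prr5l gene sums lay at 2.33 or more on the log2 scale for RA+VitC iTregs over naive cells, between 2.34 and 2.88 for TGFβ iTregs over naive cells, and between 0.22 and 0.58 for RA+VitC iTregs over Tregs. Without its region of most reads, Tsc2 turned to -0.16 for TGFβ iTregs against Tregs. The cause of the changes below was not tested, apart from fewer reads or regions where thinning or a filter took them away.

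The titles share numbers between the 2 iTreg types and between Tregs and naive cells. Same-numbered libraries did not deviate together (r = 0.01 and 0.00 over 8443 genes), so they were not taken as pairs. With a replicate block, edgeR called 3480 genes between the iTreg types, against 3458 without it, and 2 of the 6 members in both. It called 5 member regions with the block and 7 without.

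For gene sums in Tregs against naive cells, 5860 genes were called, 3247 with DESeq2 and 2526 after thinning. In RA+VitC iTregs against naive cells, 8337 were called and 5418 after thinning. In RA+VitC iTregs against Tregs, 7434 were called and 4628 after thinning. Of the 6 members, 2 were called between the iTreg types and 1 with DESeq2. In TGFβ iTregs against Tregs 4 were called, and 2 with DESeq2, after thinning or without each gene's region of most reads. In RA+VitC iTregs against Tregs 5 were called and 3 after thinning. The 4 and the 5 include Prr5l and Tsc2, which carry no test against Tregs.

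For regions, the totals were given with DESeq2, with mean reads of 50 or more, and after thinning, in that order. They were 8006, 10626 and 5092 in Tregs against naive cells (31275 in the reported fit), 17085, 11294 and 15729 in TGFβ iTregs against naive cells (28844), and 28020, 15684 and 19238 in RA+VitC iTregs against naive cells (51105). They were 4666, 5685 and 5320 between the iTreg types (8863), 11374, 9998 and 12189 in TGFβ iTregs against Tregs (20846), and 19247, 14257 and 14793 in RA+VitC iTregs against Tregs (39536). Member regions called were 21, 15 and 14 in Tregs against naive cells (53 reported), 10, 5 and 10 in TGFβ iTregs against Tregs (17), and 17, 18 and 17 in RA+VitC iTregs against Tregs (45). With mean reads of 50 or more, and after thinning, they were 14 and 24 in TGFβ iTregs against naive cells (45), and 21 and 34 in RA+VitC iTregs against naive cells (71). Between the iTreg types 7 were called, 12 with library-size scaling, 3 with DESeq2 and 3 after thinning.

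Leaving out 1 library at a time gave these ranges. Genes called numbered 4290 to 6032 in Tregs against naive cells, 4415 to 6281 in TGFβ iTregs against naive cells, 6907 to 8463 in RA+VitC iTregs against naive cells, 2464 to 3494 between the iTreg types, 3678 to 5391 in TGFβ iTregs against Tregs and 5845 to 7583 in RA+VitC iTregs against Tregs. In the same order, regions called numbered 17887 to 32995, 16109 to 28470, 34643 to 52525, 4820 to 8833, 10780 to 20760 and 24520 to 39870. Members called numbered 3 to 3, 3 to 4, 3 to 4, 1 to 2, 2 to 4 and 4 to 5, and member regions called 33 to 52, 25 to 44, 54 to 71, 1 to 7, 10 to 17 and 19 to 46. A lone library left in a group was assumed to vary like the other groups.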

Other observations

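3 single regions stood out after their values had been seen. A short intronic Rptor region, chr11:119716664-119716872, went against the rest of its gene, with 8 and 6 reads in RA+VitC iTregs, 4 and 3 in TGFβ iTregs, 2 and 3 in Tregs, and 0 and 2 in naive cells. It passed the filter on low counts only through the iTreg libraries, so its log2 difference of 3.94 ± 1.10 between RA+VitC iTregs and naive cells is a description of these few reads. The Rictor region chr15:6737709-6739392 held 3.39 and 2.88 CPM in RA+VitC iTregs, 6.89 and 5.79 in TGFβ iTregs, 2.09 and 1.94 in Tregs, and 4.45 and 3.27 in naive cells, and was the 1 Rictor region called higher in TGFβ iTregs than in Tregs (log2 1.64 ± 0.42, edgeR adjusted p = 0.0012). Near the end of Prr5l, the intronic region chr2:101572940-101573675, centred 106 kb from the start, held 7.91 and 8.64 CPM in RA+VitC iTregs, 2.30 and 5.79 in TGFβ iTregs, 1.35 and 1.48 in Tregs, and 0.49 and 0.59 in naive cells. That region, too, passed the filter on low counts only through the iTreg libraries, so these levels are a description.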
